A study of Homo sapiens with 2 samples.

Results

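Metallothioneins and the main carriers of cellular zinc were followed in a temozolomide-resistant clone of a glioblastoma line and in its parent. They were given by name as 7 genes: the metallothioneins MT1E, MT1X and MT2A, the zinc-sensing transcription factor MTF1, the zinc exporter SLC30A1 and the zinc importers SLC39A10 and SLC39A14. Rows carrying these names were found for 6 of the 7 among 15603 genes, and MT1E is not analysed here. All 6 passed the filter on low values described below.

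The study held 2 RNA sequencing libraries of A172, an established human glioblastoma cell line, made with a stranded mRNA kit. A172R6 is a resistant clone of A172 selected with temozolomide (TMZ), an alkylating drug, and is labelled as treated with TMZ. The parental A172 cells are labelled as without TMZ. Each group held 1 library and the resistant group is 1 clone, so clonal origin, selection and drug exposure cannot be told apart, and no difference below has a replicate check. Levels are FPKM, that is, fragments divided by transcript length and by the size of the library, and the depth behind them is unknown. The FPKM of all genes summed to 323932 in A172R6 and 299594 in A172.

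Zinc enters the cytosol through carriers of the SLC39A (ZIP) family and leaves it, to the outside or into organelles, through carriers of the SLC30A (ZnT) family. Metallothioneins are small, cysteine-rich proteins that bind zinc and copper. When free zinc rises, MTF1 binds metal response elements in DNA and turns on metallothionein genes and SLC30A1, the zinc exporter of the plasma membrane. In mouse, MTF1 also lowers the gene for the importer SLC39A10.

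Sequences upstream of 3 of these genes are shown because metallothioneins and SLC30A1 are textbook targets of MTF1 and had unlike differences between the libraries. The core of the metal response element was searched as TGCGCNC and TGCACNC on both strands, in the 250 bases before each RefSeq start site (GRCh38.p14). Capitals mark matches, which in part lie on the opposite strand.

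SLC30A1 (minus strand, chr1:211579162-211579411), 250 bases with 1 match.
SLC30A1: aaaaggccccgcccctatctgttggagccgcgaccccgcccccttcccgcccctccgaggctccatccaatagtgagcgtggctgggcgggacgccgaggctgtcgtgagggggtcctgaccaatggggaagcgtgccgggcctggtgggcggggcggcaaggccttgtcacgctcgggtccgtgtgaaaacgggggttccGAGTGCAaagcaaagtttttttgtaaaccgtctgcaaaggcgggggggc

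MT1X (plus strand, chr16:56682220-56682423), the 204 bases of the window that lie before its first annotated exon, with 4 matches.
MT1X: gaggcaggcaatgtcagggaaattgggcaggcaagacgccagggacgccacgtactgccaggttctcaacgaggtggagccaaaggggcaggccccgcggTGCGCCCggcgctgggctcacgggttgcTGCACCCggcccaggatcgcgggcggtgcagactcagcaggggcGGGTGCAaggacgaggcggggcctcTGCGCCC

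MT2A (plus strand, chr16:56608427-56608456, chr16:56608492-56608521 and chr16:56608526-56608555), 3 stretches of 30 bases holding 4 of its 7 matches.
MT2A: cgggTGCGCCCggcccagTGCGCGCggccg
MT2A: gggcGTGTGCAggcagcgcccggccggggc
MT2A: ctttTGCACTCgtcccggctctttctagct

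The full window of MT2A held 7 matches, that of MT1X held 4 and that of SLC30A1 held 1, with no overlap between matches. The windows of MTF1 and both windows of SLC39A10 held 0. Of 35116 windows of the same length before RefSeq start sites, 24.8% held at least 1 match, 0.37% at least 4 and 0.0313% at least 7. A match describes letters and is no measured binding site. The annotated starts differ between sources: GENCODE 29 places the start of SLC30A1 419 bases downstream of the RefSeq one, so the window does not cover the bases next to that start. It places the start of MT2A at 56608199 and RefSeq at 56608584, so the stretches shown lie inside the annotated gene, in the untranslated part of the first exon of 1 transcript. Its start of SLC39A10, at 195575977, lies far upstream of the RefSeq starts behind both windows, at 195656958 and 195657226, and the bases before it were not searched.

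SLC30A1 was the only one of the 6 genes at least 2-fold higher in A172R6, and none was at least 2-fold lower. Over all 13937 tested genes, the share called higher by this rule was 4.59% and the share called lower 3.82%, or 640 and 532 genes. These shares are the background for each count of 2-fold calls below. With both libraries brought to the same FPKM sum, 506 genes were called higher and 664 lower. The importer SLC39A14 was just under 2-fold higher, while both metallothioneins and SLC39A10 had slightly lower levels. MTF1 had a higher level, at a plain ratio of 1.48. A gene was tested with 1 or more FPKM in either library, and its log2 fold was log2 of (A172R6 FPKM + 1) over (A172 FPKM + 1), which understates the difference of low genes. The median log2 fold of the 6 genes was 0.14, beside 0.04 over all tested genes, with 3 above 0 and 3 below. These are bulk cultures, in which fewer cells with a transcript and less of it per cell cannot be told apart.

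**Figure D1:**
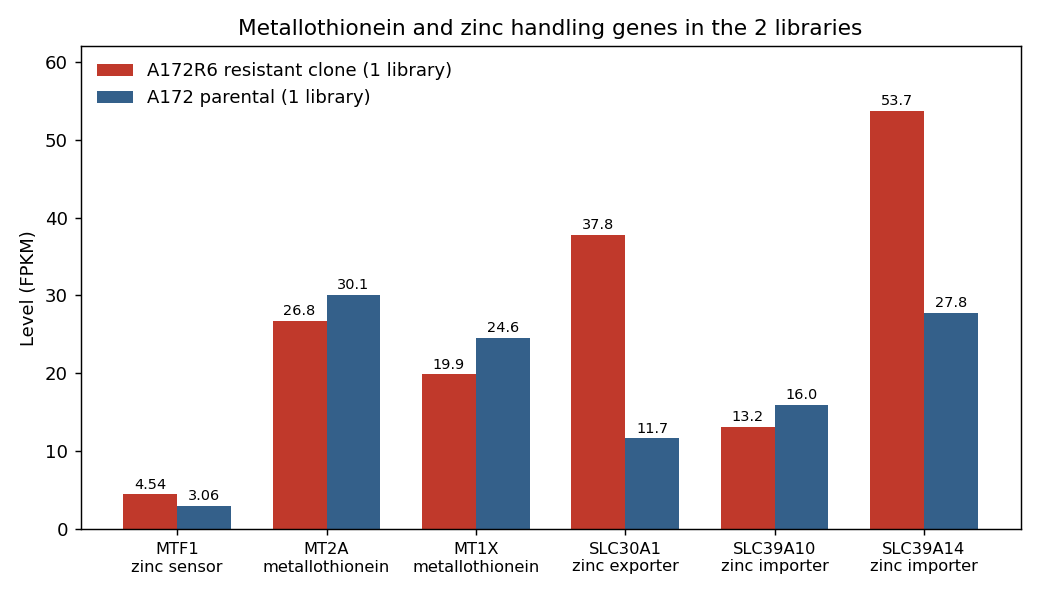
Level in FPKM (vertical axis, linear from 0) of the 6 genes in the A172R6 library (red) and the A172 library (blue), 1 library each and therefore without error bars. SLC30A1 stands at 37.8 and 11.7 FPKM and SLC39A14 at 53.7 and 27.8, while the bars of MT2A, MT1X and SLC39A10 are a little lower in A172R6.

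The zinc sensor MTF1 (ENSG00000188786, chromosome 1, 37809567 to 37859620, minus strand, GRCh38) had 4.54 FPKM in A172R6 and 3.06 FPKM in A172. Its plain ratio was 1.48 and its log2 fold 0.45, under the 2-fold threshold, and 20.5% of tested genes had a higher log2 fold. It was the lowest of the 6 genes in both libraries. In the authors' deposited table its q-value was 0.561.

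Both metallothioneins lie on chromosome 16 in the q13 cluster. MT2A (ENSG00000125148, 56608199 to 56609497, plus strand, GRCh38) had 26.8 FPKM in A172R6 and 30.1 FPKM in A172, a log2 fold of -0.16. MT1X (ENSG00000187193, 56682424 to 56684196, plus strand) had 19.9 FPKM in A172R6 and 24.6 FPKM in A172, a log2 fold of -0.29. Neither differed by 2-fold, and in the authors' deposited table their q-values were 0.890 and 0.853. Their sum was 46.7 FPKM in A172R6 and 54.7 FPKM in A172, a ratio of 0.854.

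The proportion between both metallothioneins was alike, with MT2A at 1.35 times MT1X in A172R6 and 1.22 times in A172. Of 20 metallothionein genes and pseudogenes listed, only these 2 were in the table, and the other 18 are not analysed here. Their mRNAs resemble those of their relatives, so reads can be divided among copies. Of all 50-base stretches of the coding transcripts, 2.22% of those of MT2A and 8.28% of those of MT1X occurred in another family gene or pseudogene. Stretches were pooled over 2 coding transcripts of each gene, so the share within 1 transcript can be larger. Only identical stretches were counted, so these shares do not cover reads aligned with mismatches.

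Genes around the cluster were read as a check of position. Of 16 neighbours on 16q13 in the table, 1 was called higher, the chemokine gene CCL17 (2.97 FPKM in A172R6 and 0.662 FPKM in A172), and none lower. CCL17 lost its call with a pseudocount or a filter of 5 FPKM. Their median log2 fold was -0.00033. The flanks of MT2A, taken as the 10 nearest tested genes on each side, held no gene that differed by 2-fold and had a median of -0.10. The flanks of MT1X gave the same count and median, but both genes lie in 1 cluster, so their flanks overlap and are no separate check.

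SLC30A1 (ENSG00000170385, chromosome 1, 211571568 to 211578742, minus strand, GRCh38) had 37.8 FPKM in A172R6 and 11.7 FPKM in A172. The plain ratio was 3.22 and the log2 fold with the pseudocount 1.61. Of 13937 tested genes, 140 had a higher fold. Its level stood at percentile 87.9 of tested genes in A172R6 and at percentile 60.1 in A172. In the authors' deposited table its q-value was 0.00239, which compares these 2 libraries and not the conditions.

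The order of the exporter and the metallothioneins differed between the libraries. SLC30A1 was at 1.41 times the FPKM of MT2A in A172R6 and at 0.389 times in A172. Against MT1X it was at 1.90 times in A172R6 and at 0.477 times in A172. Against its regulator MTF1 it was at 8.31 times in A172R6 and at 3.83 times in A172. FPKM are per length, so such ratios compare transcripts within 1 library, and no replicate spread says how far they vary.

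Among the 10 tested genes on each side of SLC30A1, 1 was called higher and 1 lower, with a median log2 fold of 0.26. The one called higher, named after its values were seen, was the stress-induced transcription factor gene ATF3, with 37.7 FPKM in A172R6 and 11.6 FPKM in A172 (log2 fold 1.62). It was also the only one of those 20 genes with a higher fold than SLC30A1.

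SLC39A14 (ENSG00000104635), an importer on chromosome 8 that carries zinc, iron and manganese, had 53.7 FPKM in A172R6 and 27.8 FPKM in A172. Its plain ratio was 1.93 and its log2 fold 0.93, just under the 2-fold threshold, and 5.73% of tested genes had a higher fold. In the authors' deposited table its q-value was 0.0243. At a q-value under 0.05, that table held 2 of the 6 genes, SLC30A1 and SLC39A14, both higher in A172R6, beside 5.13% of all 15603 genes higher and 3.98% lower. Around SLC39A14, none of the 20 flanking genes was called higher and 1 was called lower. None of those 20 had a higher fold, and their median was -0.34.

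SLC39A10 (ENSG00000196950, chromosome 2, 195575977 to 195737702, plus strand, GRCh38), an importer of the plasma membrane, had 13.2 FPKM in A172R6 and 15.97 FPKM in A172. Its log2 fold was -0.26 and its q-value in the authors' deposited table was 0.664. The level of SLC39A14 was 4.08 times that of SLC39A10 in A172R6 and 1.74 times in A172. Of the 20 genes flanking SLC39A10, 4 were called lower and none higher, with a median log2 fold of -0.34.

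**Figure D2:**
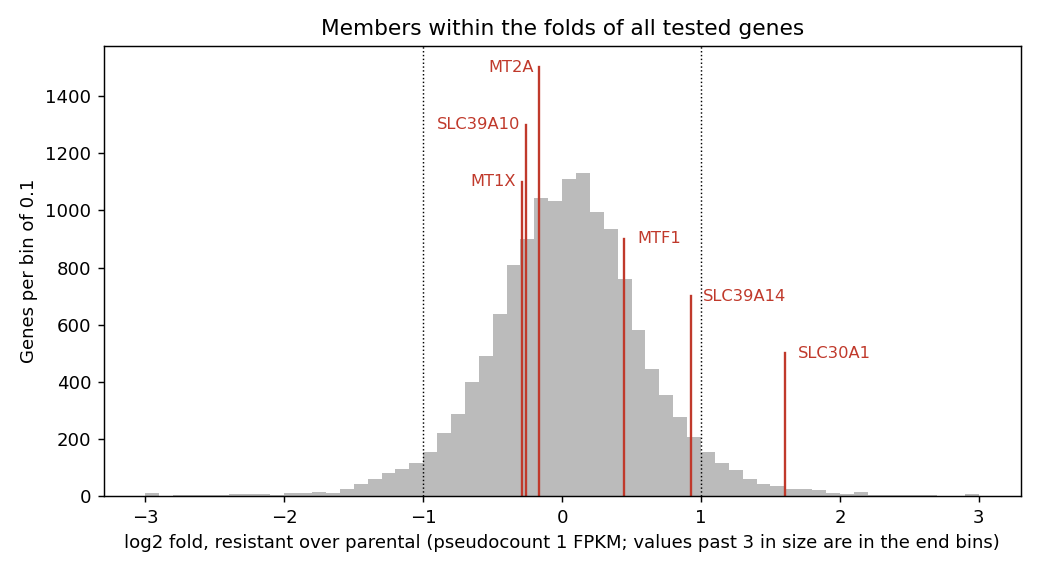
Histogram of the log2 fold of A172R6 over A172 for the 13937 tested genes (grey, bins of 0.1 on the horizontal axis, genes per bin on the vertical axis), with dotted lines at 2-fold. Red lines place the 6 genes, their heights serving only to separate the names. SLC30A1 lies in the right tail at 1.61 and SLC39A14 just inside the dotted line at 0.93. MTF1 lies right of the centre at 0.45, and MT2A, MT1X and SLC39A10 lie near the centre.

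With 2 libraries the pattern of a gene is a single ratio, so no gene can be named as most like another. Within 0.1 of the log2 fold of SLC30A1 lay 60 other tested genes, and within 0.1 of that of SLC39A14 lay 441. For the other 4 genes the number ran from 1528 for MTF1 to 2028 for MT2A.

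The whole families of zinc carriers place these genes among their relatives. Of 10 SLC30A genes listed, 7 were in the table and tested, and SLC30A1 was the only one called higher, with none called lower and a median log2 fold of 0.10, or -0.0075 with both libraries brought to the same FPKM sum. SLC30A3, known for loading zinc into synaptic vesicles, had 2.87 FPKM in A172R6 and 1.55 FPKM in A172 (log2 fold 0.60). SLC30A5, which works with SLC30A6 in the early secretory pathway, had 25.0 FPKM in A172R6 and 30.3 FPKM in A172 (-0.26). SLC30A6 had 21.2 FPKM in A172R6 and 19.7 FPKM in A172 (0.10). The Golgi carrier SLC30A7, the endosomal SLC30A4 and the mitochondrial SLC30A9 had log2 folds of 0.14, 0.07 and -0.04.

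SLC30A1 was the most abundant of these 7 exporters in A172R6 and the fifth in A172, where SLC30A5 was the most abundant. It made up 29.6% of their summed FPKM in A172R6 and 11.4% in A172. The sum was 128 FPKM in A172R6 and 103 FPKM in A172. Without SLC30A1 it was 90.0 FPKM in A172R6 and 91.3 FPKM in A172. These sums were not scaled to the FPKM sum of all genes, which was larger in A172R6.

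Of 14 SLC39A genes listed, 10 were in the table and tested, none was called in either direction, and the median log2 fold was -0.13. After SLC39A14, the highest fold was that of SLC39A3, a carrier of the plasma membrane, with 30.04 FPKM in A172R6 and 22.3 FPKM in A172 (0.41). SLC39A6 had 33.8 FPKM in A172R6 and 27.4 FPKM in A172 (0.29), and SLC39A8, which also carries manganese, had 16.9 FPKM in A172R6 and 13.9 FPKM in A172 (0.26). The lowest fold was that of SLC39A7, which releases zinc from the endoplasmic reticulum, with 37.2 FPKM in A172R6 and 56.4 FPKM in A172 (-0.59). In the authors' deposited table its q-value was 0.0530. SLC39A11, SLC39A13, SLC39A1 and SLC39A9 had log2 folds of -0.33, -0.26, -0.14 and -0.13.

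**Figure D3:**
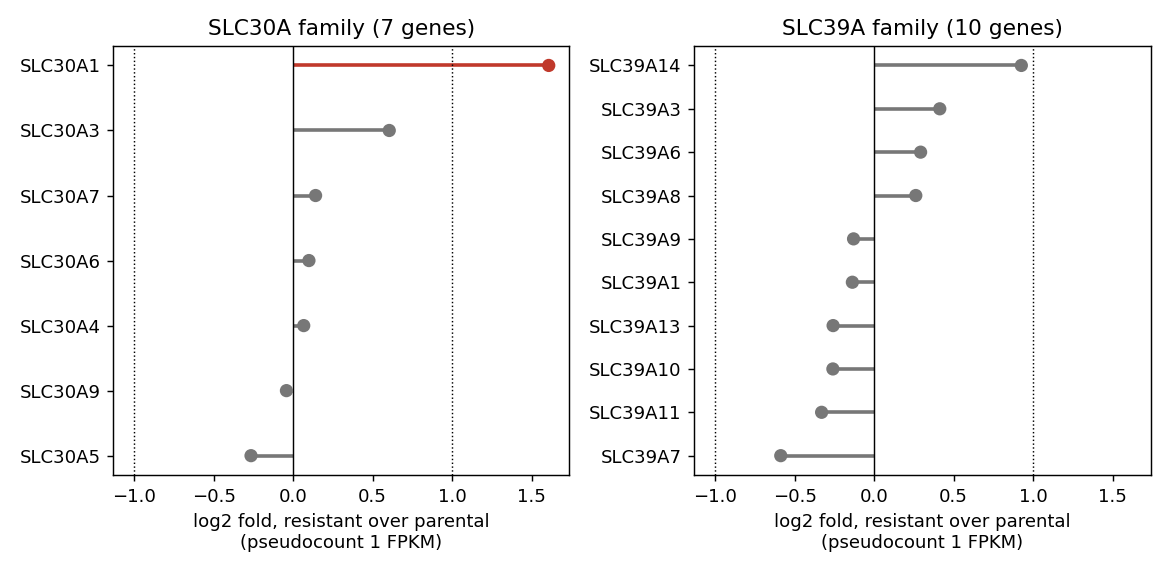
Log2 fold of A172R6 over A172 (horizontal axis, pseudocount of 1 FPKM) for the 7 SLC30A and the 10 SLC39A genes in the table, each sorted by fold, with dotted lines at 2-fold and red for a gene past it. SLC30A1 at 1.61 is the only gene outside the dotted lines.

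SLC39A14 was the most abundant of the 10 importers in A172R6 and the fifth in A172, where SLC39A1 was the most abundant. In A172R6, SLC39A1 followed it closely, at 53.0 FPKM, a difference that no replicate spread can judge, and SLC39A1 had 58.3 FPKM in A172. SLC39A14 made up 16.7% of the summed FPKM of the importers in A172R6 and 8.65% in A172. The sum itself was 321 FPKM in both libraries. It was taken without scaling, while the FPKM of all genes summed to 323932 in A172R6 and 299594 in A172. An equal sum is therefore a smaller part of all FPKM in A172R6. Without SLC39A14 the importer sum was 267 FPKM in A172R6 and 294 FPKM in A172.

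**Figure D4:**
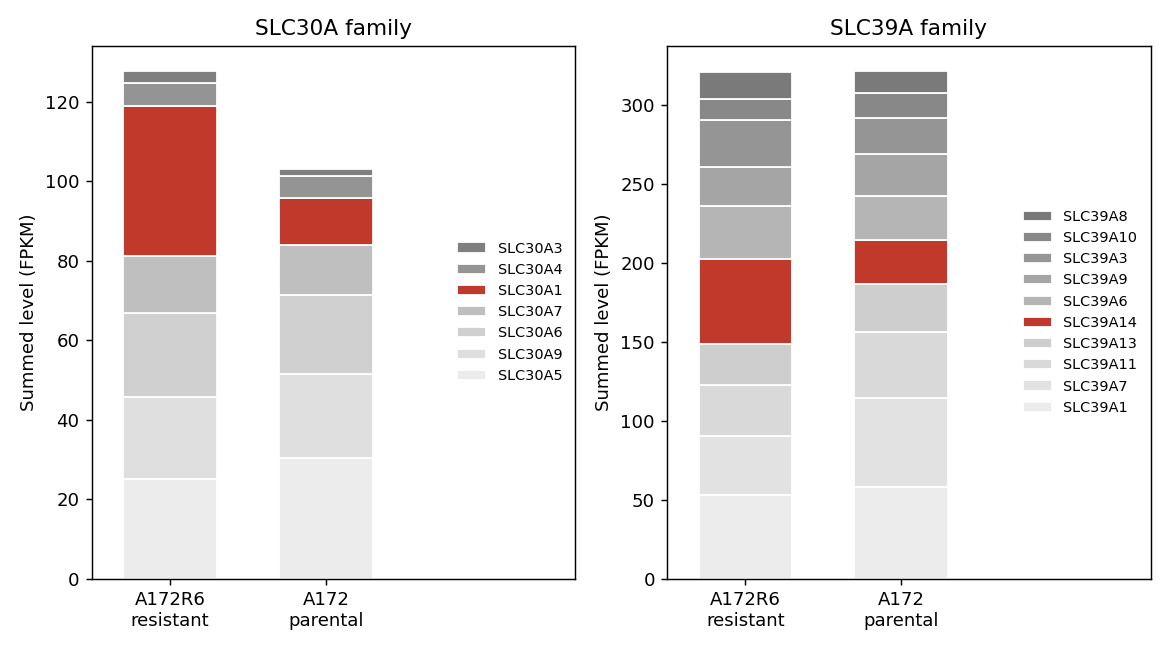
Summed FPKM (vertical axis, linear from 0) of the SLC30A family (left) and the SLC39A family (right) in A172R6 and A172, stacked by gene, with SLC30A1 and SLC39A14 in red. The SLC30A stack is 128 FPKM high in A172R6 and 103 in A172, and the SLC39A stacks are both 321 high. The stacks are not scaled to the FPKM sum of all genes, which was larger in A172R6.

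The labelled cell type was checked on marker genes. Of 12 glial and glioma markers, 7 were in the table, with vimentin, VIM, at 804 FPKM in A172R6 and 632 FPKM in A172 and EGFR at 63.2 and 36.8 FPKM. Nestin, NES, was lower in A172R6, at 5.08 FPKM, against 33.7 FPKM in A172. CD44 had 161 FPKM in A172R6 and 83.1 FPKM in A172, and SOX9 had 8.25 and 10.3 FPKM. OLIG2 was low, at 3.42 FPKM in A172R6 and 1.43 FPKM in A172. PDGFRA, at 0.118 and 0.607 FPKM, was under the filter of 1 FPKM. GFAP, S100B, AQP4, SLC1A3 and ALDH1L1, which define astrocytes, are not analysed here. Markers of other cell types were read as well. The 2 of 6 myeloid markers in the table summed to 0.919 FPKM in A172R6 and 2.52 FPKM in A172. The 2 of 4 endothelial ones summed to 0.164 and 1.504 FPKM. Of these, only the myeloid PTPRC, at 0.485 FPKM in A172R6 and 1.83 FPKM in A172, passed the filter of 1 FPKM. It was not called, and the others were too low to be tested. The 3 of 5 neuronal markers in the table summed to 108 FPKM in A172R6 and 166 FPKM in A172, and none was called. The 3 of 4 epithelial ones, mainly KRT8 and KRT18, summed to 1609 and 605 FPKM. KRT8 was called higher, at 905 FPKM in A172R6 and 213 FPKM in A172. EPCAM, at 0.669 and 0.797 FPKM, was under the filter. The part of all these markers in the differences of the zinc genes was not tested.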

How the data were processed

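Gene expression was measured by RNA sequencing in 2 libraries, 1 of resistant A172R6 cells and 1 of parental A172 cells, with a stranded mRNA kit per the labels' protocols. The deposited table gives FPKM per gene and library and a q-value of the authors' comparison, per the file headers. For the aligner, quantification, annotation, genome build, scaling and test, nothing is stated in the labels or headers. No gene had both values under 0.5435 FPKM.

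A gene was tested where either library reached 1 FPKM, the log2 fold used a pseudocount of 1 FPKM, and a fold of at least 2 was called. With 1 library per group no p-value was computed. Depth is unknown, so no counting interval is given. The calls were tested on simulated data. The changes planted there were larger than the threshold and lay in genes well above the filter, so calls near either were not tested. The spread in the simulated data was assumed, so they do not show how far replicates of these cells would vary. Positions come from GENCODE 29 (GRCh38), which held 15531 of the identifiers; upstream windows come from RefSeq (GRCh38.p14), which matched 5 of the 7 genes.

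The members and the lists (metallothioneins, SLC30A, SLC39A, copper, iron, 16q13 neighbours, cell markers) were chosen with earlier results of these data known. The 6 genes and all SLC30A and SLC39A genes in the table were named, with called genes of the copper, iron and 16q13 lists and at most 3 further ones by fold. Alternatives changed the pseudocount, filter, scaling, threshold and genes at 0. Python 3.11.15, pandas 2.3.3 and numpy 2.4.6 were used.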

Additional observations from a re-analysis of the deposited data

How the results depend on the processing

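No paired analysis was possible because each group held 1 library. Over 10 other settings the log2 fold of SLC30A1 ran from 1.35 to 1.68 and that of SLC39A14 from 0.82 to 0.95. That of MT2A ran from -0.27 to -0.14, that of MT1X from -0.40 to -0.25 and that of SLC39A10 from -0.36 to -0.21. Each kept 1 sign, but the filters, the thresholds and leaving out genes at 0 cannot change a fold. A pseudocount cannot turn the sign of a fold, so only the scalings could have done so. MTF1 ran from 0.24 to 0.55 over 9 and was not tested with a filter of 5 FPKM, where the median of the remaining 5 genes was -0.16. At a 1.5-fold threshold, where 14.5% of all tested genes were higher, SLC39A14 (log2 fold 0.93) was called as well, making 2 of the 6 genes, with 2 SLC30A genes higher, 1 SLC39A gene higher and 1 lower. At 4-fold SLC30A1 (1.61) was not called, leaving 0 of the 6 genes and 0 of the SLC30A genes. With both libraries brought to the same FPKM sum the medians shifted to -0.34 for metallothioneins, -0.0075 for SLC30A, -0.24 for SLC39A and -0.061 for all genes, which moves the median of all genes by -0.10, and the log2 ratio of summed metallothionein FPKM was -0.34. Genes called higher and lower numbered 640 and 532 as reported, 1076 and 1029 with a pseudocount of 0.1 FPKM, 220 and 114 with one of 5 FPKM, 2020 and 1674 at 1.5-fold and 61 and 59 at 4-fold. Under each scaling more were lower than higher, with 571 higher and 580 lower with the median fold set to 0, 539 and 616 with upper quartile scaling and 506 and 664 with the same FPKM sum. With the 5 FPKM filter 466 were higher and 282 lower. Leaving out metallothionein pseudogenes changed nothing, since none was in the table. The limits are 1 library per group, unknown depth and metallothionein reads that copies can share.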

Other observations

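Carriers and binders of other metals were read from lists of the same kind, beside 4.59% of all tested genes called higher and 3.82% called lower. Of 15 copper genes in the table, 1 was called lower, STEAP3, a metalloreductase of iron and copper, and none higher (median log2 fold -0.23). STEAP3 had 49.1 FPKM in A172R6 and 134 FPKM in A172 (log2 fold -1.43), with a q-value of 7.12e-06 in the authors' deposited table. SLC31A2, a relative of the copper importer SLC31A1, had 5.003 FPKM in A172R6 and 2.05 FPKM in A172 (0.98), and was called with a pseudocount of 0.1 FPKM. The copper chaperone ATOX1 had 75.7 FPKM in A172R6 and 44.7 FPKM in A172 (0.75), and the copper pump ATP7A had 4.04 and 6.68 FPKM (-0.61).

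Of 13 iron genes tested, 1 was called higher, FTL, the light chain of the iron store ferritin, and none lower (median log2 fold 0.01). FTL had 417 FPKM in A172R6 and 180 FPKM in A172 (1.21). The ferritin heavy chain gene FTH1 had 589 FPKM in A172R6 and 310 FPKM in A172 (0.92), under the threshold. In the authors' deposited table the q-values of FTL and FTH1 were 0.0259 and 0.00027, which compare the 2 libraries and not the conditions. Both ferritin genes have processed copies that can share their reads. HFE had 3.04 FPKM in A172R6 and 6.34 FPKM in A172 (-0.86) and was called lower with a pseudocount of 0.1 FPKM. IREB2 had 20.5 FPKM in A172R6 and 27.6 FPKM in A172 (-0.41).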
